A study of Homo sapiens with 2 samples.

Results

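Homologous recombination and Fanconi anemia genes were examined in A549 cells, which form an established line of human lung adenocarcinoma. The 37 genes were chosen by symbol from these repair pathways, with earlier results of these data known. All 37 were found by Entrez ID among the 16399 genes with a value. The series holds 2 RNA-sequencing libraries, 1 from A549 cells carrying the vector and 1 from A549 cells overexpressing PKP2 (plakophilin 2, a desmosomal plaque protein) from an SFB-tagged construct. Both cultures were at passage 5 in DMEM with serum, and the labels do not say whether either culture was a clone or a pool of cells. The question was which genes lie downstream of PKP2. Since neither group has a second library, no difference below has been checked in replicates, and each sets these libraries, not the conditions, against each other.

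The total of estimated counts was 16996976 for vector and 16808842 for PKP2. PKP2 itself stood at 27.3 CPM (counts per 1000000 of the library total) in the former and 268 CPM in the latter. The 8 epithelial markers of the list used to check the cell line were all expressed, led by KRT8 at 5339 and 5416 CPM. Of them 5 averaged 5 CPM or more. EPCAM, CLDN4 and MUC1 were low, at 1.47 and 1.37, 2.65 and 2.86, and 3.88 and 4.52 CPM. Endothelial markers summed to 0.412 and 1.13 CPM and fibroblast markers to 11.0 and 13.9 CPM. Leukocyte markers summed to 86.4 and 89.7 CPM, of which CD68, a lysosomal protein gene, held 78.4 and 82.5 CPM. Across all 12820 expressed genes (1 CPM or more in at least 1 library), genes with long transcripts tended to be lower in the PKP2 library and genes with short transcripts higher, and values with this trend removed are given for each group of genes, for the genes that differed most and, for every gene, in the plot of ratios.

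Homologous recombination repairs broken chromosomes by copying an intact sister chromatid. Broken ends are resected to single strands, BRCA1, PALB2 and BRCA2 prepare the strand for invasion, the BCDX2 and CX3 complexes help the filament form, and helicases and nucleases then resolve the joined molecules. The Fanconi anemia pathway handles crosslinks between DNA strands: a core complex with the E2 enzyme UBE2T places ubiquitin on FANCD2 and FANCI, which recruits nucleases, and the break left behind is passed to recombination. Many of these genes are transcribed most strongly as cells enter S phase, and cells lacking them are sensitive to crosslinking agents and PARP inhibitors.

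As a group, these genes were slightly lower in the PKP2 library, and nearer to all other genes once the trend with transcript length and GC content was removed. The median difference, log2(CPM + 1) in PKP2 minus vector, was -0.11 over the 37 genes, against 0.00 over all expressed genes. Of the 37 genes, 29 lay below 0, where 50.3% of expressed genes did. A difference of 1.2-fold or more on this scale was taken as the call: 6 genes (FANCM, WRN, FANCB, SLX4, XRCC2 and FANCD2) were lower by that rule, 16.2% of the 37, against a background of 11.0%. No gene was higher by the rule, against a background of 8.70%. At 1.1-fold 17 genes were lower and 3 higher, against 25.5% and 23.4% of expressed genes, and at 1.5-fold none were, against 0.788% and 0.733%. All 37 passed the expression filter, and none had a mean under 5 CPM. Over expressed genes that averaged 5 CPM or more, 10.2% were lower by the 1.2-fold rule and 6.49% higher. With the trend on length and GC content removed, the median was -0.04, against -0.01 over all expressed genes, and 2 genes (FANCB and SLX4) were past 1.2-fold on the lower side, or 5.41% against a background of 6.56%. Which genes passed depended on how the trend was taken out: with length alone, FANCM, WRN, FANCB, XRCC2 and RAD51B were past 1.2-fold and SLX4 was not. On the higher side there were again 0 with the length and GC trend removed, against 6.57%. Over genes that averaged 5 CPM or more, the backgrounds with that trend removed were 4.79% lower and 4.59% higher.

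**Figure D1:**
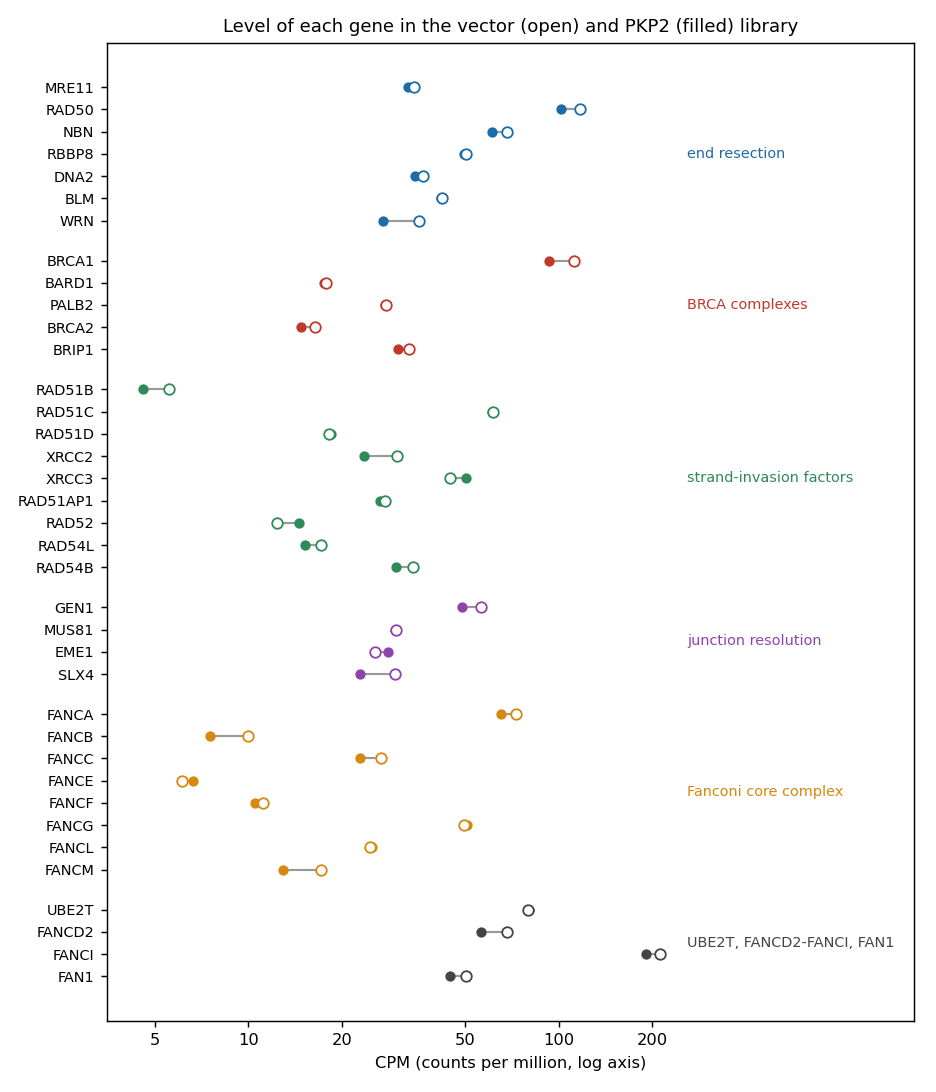
Level of each of the 37 genes in CPM (log axis), with the vector library as an open circle and the PKP2 library as a filled circle joined by a line; colours mark the role groups. Levels ran from 5.53 CPM for RAD51B to 212 CPM for FANCI in the vector library, and in most genes the filled circle lies to the left of the open one.

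For each gene the ratio of CPM, PKP2 over vector, is given with its exact 95% Clopper-Pearson interval, which covers counting error only. This counting interval lay below 1 for 15 of the 37 genes, against a background of 19.8%, and above 1 for 1 gene (XRCC3), against a background of 16.3%. It included 1 for the other 21, so no difference was detectable in them at this depth. Counts behind these ratios ran from 77 to 3603 per gene and library. In RNA from whole cultures, fewer cells expressing a gene and less RNA per cell cannot be told apart. The 10 genes with a fractional count, which are uncertain, were NBN, BRIP1, XRCC3, RAD52, RAD54B, EME1, FANCA, FANCL, FANCI and FAN1. Genes with exons that overlap another gene are uncertain too. MUS81 shares 759 bases with CFL1 on the opposite strand, which matters because the strand setting is not known. Of the genes called lower, SLX4 shares 329 bases with AC006111.1, FANCD2 261 with FANCD2OS and WRN 115 with AC009563.1, also on the opposite strand. RAD54B shares 3139 bases with FSBP, RAD50 shares 7784 with AC116366.3 and RAD51D shares 905 with RAD51L3-RFFL. The overlaps of RAD54B, RAD50 and RAD51D are on the same strand, where strand cannot separate the reads. Further members with an overlap, such as RAD54L (806 bases with LRRC41), are not all named.

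Among the genes that start repair, the nuclease and helicase WRN stood apart from the other 6, which were within a narrower range. WRN, the helicase of Werner syndrome, was at 35.4 CPM (601 counts) in the vector library and 27.1 CPM (455 counts) with PKP2. Its ratio was 0.766 (0.676 to 0.866), and its difference of -0.37 was -0.26 with the length and GC trend removed, just short of 1.2-fold. BLM, the related helicase of Bloom syndrome, was at 42.2 and 41.9 CPM, a ratio of 0.993 (0.894 to 1.103). The ratios of these RecQ relatives were thus unequal, with longest annotated transcripts of 5215 and 5258 nucleotides and 38.9% and 41.2% GC. The MRN complex holds and trims broken ends. Its ATPase RAD50 was at 117 and 102 CPM, with a ratio of 0.868 (0.814 to 0.927), and its adaptor NBN at 68.4 and 61.1 CPM, with a ratio of 0.893 (0.820 to 0.972). The nuclease of the complex, MRE11, was at 34.2 and 32.8 CPM, with an interval of 0.851 to 1.08. All 3 lay close to 0 or above it once the trend was removed, at -0.03 for RAD50, -0.04 for NBN and 0.11 for MRE11. RBBP8, which encodes the resection factor CtIP, was at 50.4 and 49.7 CPM. DNA2, the long-range resection nuclease, was at 36.7 and 34.6 CPM. Both had counting intervals that included 1. All 7 resection genes were below 0, with a median of -0.08, and 3 of 7 were below 0 with the trend removed, with a median of 0.01.

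BRCA1 was the gene of its group with the largest difference, and its partners were nearer to equal levels. BRCA1 (chr17:43044295-43170245 on GRCh38, as are all gene positions here, from GENCODE release 29), the ubiquitin ligase and scaffold that promotes resection, was at 112 CPM (1902 counts) in the vector library and 93.1 CPM (1565 counts) in the PKP2 library. The ratio was 0.832 (0.778 to 0.890), and on the log2(CPM + 1) scale the difference of -0.26 was just short of 1.2-fold. With the trend removed it was -0.11. BARD1, which forms the ligase together with BRCA1, was at 17.8 and 17.5 CPM, a ratio of 0.981 (0.833 to 1.16). PALB2, the bridge from BRCA1 to BRCA2, was at 27.8 and 27.5 CPM. BRCA2, which works with PALB2, was at 16.4 and 14.8 CPM, and the helicase BRIP1 at 32.9 and 30.4 CPM. The last 3 had intervals that included 1, the widest being 0.760 to 1.08 for BRCA2. All 5 lay below 0, with a median of -0.11. With the trend removed BRCA1 alone was below 0, and the median was 0.04. These transcripts are long, with a median of 6048 nucleotides, and BRCA2 has the longest of all 37 at 11986 nucleotides.

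Among the subunits of the BCDX2 and CX3 complexes, the interval lay below 1 for XRCC2, above 1 for XRCC3, and included 1 for the rest. XRCC2 (chr7:152644779-152676165), a subunit of the BCDX2 complex, was at 30.2 CPM (513 counts) in the vector library and 23.6 CPM (397 counts) in the PKP2 library. The ratio was 0.783 (0.685 to 0.894), and the difference of -0.34 became -0.24 without the trend. The remaining subunits of that complex bind the same filament. RAD51C was at 61.5 and 60.9 CPM, with a ratio of 0.991 (0.908 to 1.08), and RAD51D at 18.2 and 18.5 CPM, with a ratio of 1.02 (0.867 to 1.195). RAD51B had the lowest level of all 37, at 5.53 and 4.58 CPM from 94 and 77 counts, and its interval of 0.605 to 1.13 was the widest as a ratio of its bounds. XRCC3, which pairs with RAD51C in the CX3 complex, was at 44.7 and 50.2 CPM, a ratio of 1.12 (1.02 to 1.24), and at 0.08 instead of 0.16 with the trend removed. Its count was fractional, and 5756 of its exonic bases overlap KLC1 on the opposite strand, so its value is uncertain.

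Of the other factors of strand invasion, only RAD54B, with a fractional count, had an interval that did not include 1. RAD52, an annealing protein, was at 12.4 and 14.6 CPM, the highest ratio of the 37 at 1.18, with an interval of 0.981 to 1.43 that included 1. The translocases RAD54L and RAD54B, which act during strand invasion, were at 17.2 and 15.2 CPM and at 33.98 and 29.97 CPM. Their ratios were alike, at 0.883 (0.744 to 1.05) and 0.882 (0.781 to 0.995). With the trend removed RAD54L was at -0.22, RAD54B at -0.13 and RAD52 at 0.19. RAD51AP1, a stimulator of strand invasion, was at 27.5 and 26.5 CPM. Over the 9 strand-invasion genes 6 were below 0, with a median of -0.05, and again 6 were below 0 with the trend removed, with a median of -0.04.

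Of the genes that cut joined molecules, the scaffold SLX4 was lower while the nuclease it holds was level. SLX4 (chr16:3581181-3611598), which docks several structure-specific nucleases, was at 29.7 CPM (504 counts) in the vector library and 23.0 CPM (386 counts) in the PKP2 library. The ratio was 0.774 (0.677 to 0.886), and the difference of -0.36 was -0.30 with the length and GC trend removed. With the trend on length alone removed it was -0.23, and with the median of its length bin subtracted -0.22, both short of 1.2-fold. MUS81, a nuclease subunit bound by SLX4, was at 29.8 and 29.7 CPM, a ratio of 0.997 (0.880 to 1.13). EME1, its partner subunit, was at 25.5 and 28.2 CPM with an interval that included 1 (0.970 to 1.26) and a fractional count. GEN1, an independent Holliday junction resolvase, was at 56.2 and 48.8 CPM, a ratio of 0.867 (0.789 to 0.953). GEN1 has a long transcript of 9854 nucleotides and lay at 0.00 with the trend removed, against -0.20 with it.

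The Fanconi core complex held the 2 lowest ratios of the 37. FANCM (chr14:45135940-45200890), the translocase that anchors the core complex to chromatin, was at 17.2 CPM (292 counts) in the vector library and 12.9 CPM (217 counts) in the PKP2 library, a ratio of 0.751 (0.627 to 0.899). FANCB (chrX:14835961-14873069), part of the catalytic module with FANCL, was at 9.94 CPM (169 counts) and 7.50 CPM (126 counts), a ratio of 0.754 (0.594 to 0.955). With the trend removed FANCM went from -0.39 to -0.21, and FANCB from -0.37 to -0.31. The longest transcript is 7111 nucleotides for FANCM and 3040 for FANCB. FANCC was at 26.8 and 22.9 CPM, a ratio of 0.856 (0.745 to 0.982), and FANCA at 72.8 and 65.0 CPM, a ratio of 0.894 (0.823 to 0.970). Without the trend their differences were -0.20 and -0.15. FANCA has a fractional count and shares 2302 exonic bases with ZNF276 on the opposite strand. The adaptor subunits FANCE, FANCF and FANCG were at 6.12 and 6.60, 11.1 and 10.5, and 49.7 and 50.5 CPM, respectively. The ubiquitin ligase subunit FANCL was at 24.7 and 25.1 CPM. These last 4 had intervals that included 1. Of the 8 core genes, 5 were below 0, with a median of -0.12, and 8 of 8 were below 0 with the trend removed, with a median of -0.11. With the trend taken from the principal instead of the longest annotated transcript, 6 of 8 were below 0.

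Downstream of the core complex, the substrate pair was lower and the E2 enzyme was level. FANCD2 (chr3:10026414-10101930), which is clamped on DNA once ubiquitinated, was at 68.2 CPM (1159 counts) and 56.0 CPM (942 counts), a ratio of 0.822 (0.753 to 0.896). Its difference was -0.28, and -0.20 with the trend removed. FANCI, which binds FANCD2, was the most abundant of the 37 in CPM, at 212 and 191 CPM, with a ratio of 0.902 (0.860 to 0.947). Its difference of -0.15 was -0.07 with the trend removed. UBE2T was at 79.5 and 80.1 CPM, a ratio of 1.01 (0.934 to 1.09). The nuclease FAN1 was at 50.2 and 44.6 CPM, a ratio of 0.889 (0.805 to 0.982), and lay at -0.11 with the trend removed. FANCI and FAN1 had fractional counts, and both share exonic bases with a gene on the opposite strand, 458 with POLG and 1507 with MTMR10. The 12 genes of these Fanconi groups had a median of -0.15, with 8 of 12 below 0, and a median of -0.10 with the trend removed, with 12 of 12 below 0. The 25 recombination genes had medians of -0.08 and 0.00, with 21 and 13 of 25 below 0. The difference between these medians was not tested. Of all expressed genes, 53.1% were below 0 with the trend removed, and of 27 DNA replication genes 20 were. The count of Fanconi genes below 0 depended on the method. It was 11 of 12 with length alone removed or length bins subtracted, and 10 of 12 with the trend from the principal transcript.

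**Figure D2:**
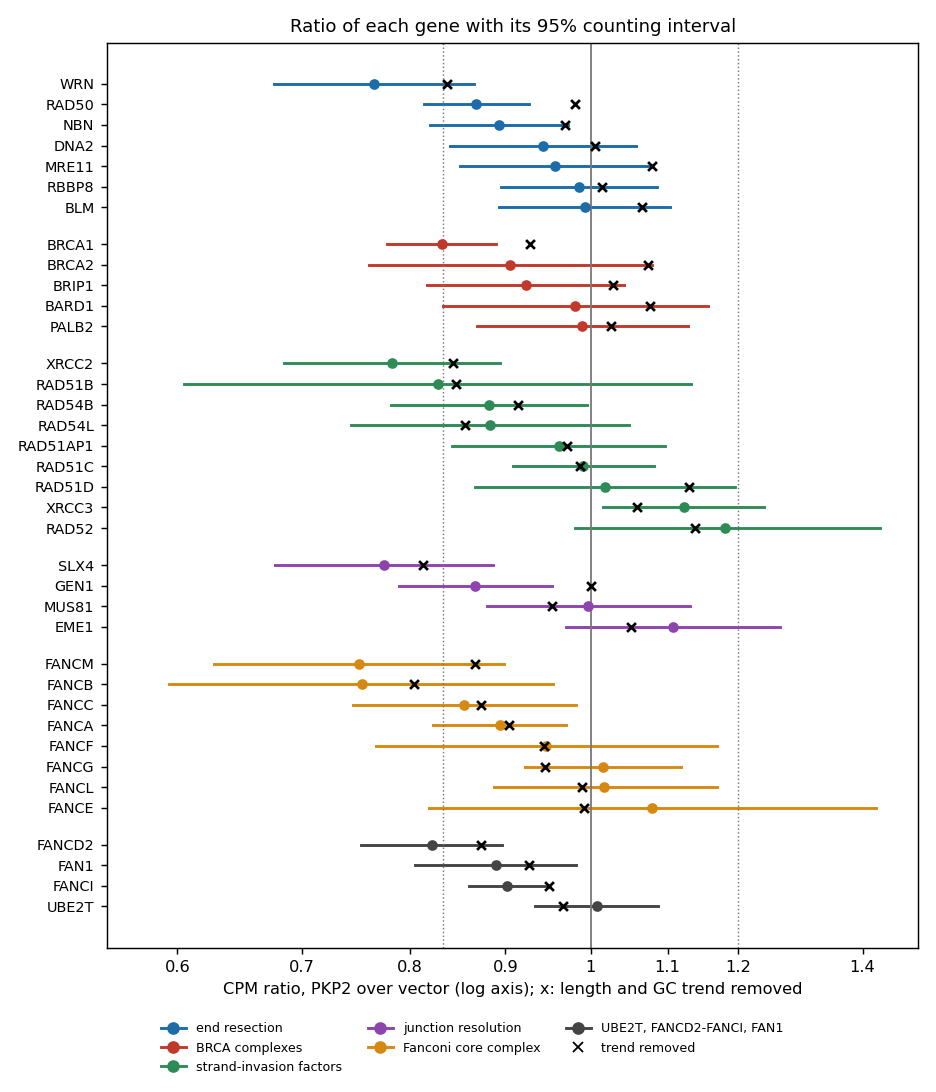
CPM ratio of PKP2 over vector (log axis) for each of the 37 genes, sorted within its role group, with bars for the 95% counting interval; dotted lines mark 1.2-fold and crosses the value with the length and GC trend removed, on the log2(CPM + 1) scale. For most long genes the cross lies to the right of the point; the crosses of FANCB and SLX4 alone lie beyond the lower dotted line.

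Transcript length and base composition were properties that the choice of the genes did not use. The 37 genes had longer and more AT-rich transcripts than most: the median longest transcript was 4592 nucleotides with 41.9% GC, against 3725 nucleotides and 48.4% GC over expressed genes. When expressed genes were split into 5 equal groups by length, 19 of the 37 (51.4%) fell into the longest 2 groups. The median difference of all genes went from 0.13 in the shortest group to -0.15 in the longest, and that of the repair genes from 0.02 (2 genes) to -0.20 (9 genes). In the longest group 2 of 9 repair genes were at least 1.2-fold lower, where 27.5% of all genes were. In the next group, 4340 to 6010 nucleotides, all 10 repair genes were below 0 and 3 were 1.2-fold lower, where 63.9% and 11.8% of all genes were. Among 11 genes of the second shortest group, FANCB was the only one past the rule, where 5.29% of all genes were. Weighting the share of all genes past the rule by the length groups of the 37 gave 12.6% on the lower side, to set beside 16.2%, and 6.82% on the higher side, to set beside 0. In all, 26 of the 37 lay below the median of their own length group. Across the 37 genes, Spearman's rho of the difference with length was -0.45, and 0.09 with the trend removed. The points share the same 2 libraries, and the value over all expressed genes was -0.46.

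**Figure D3:**
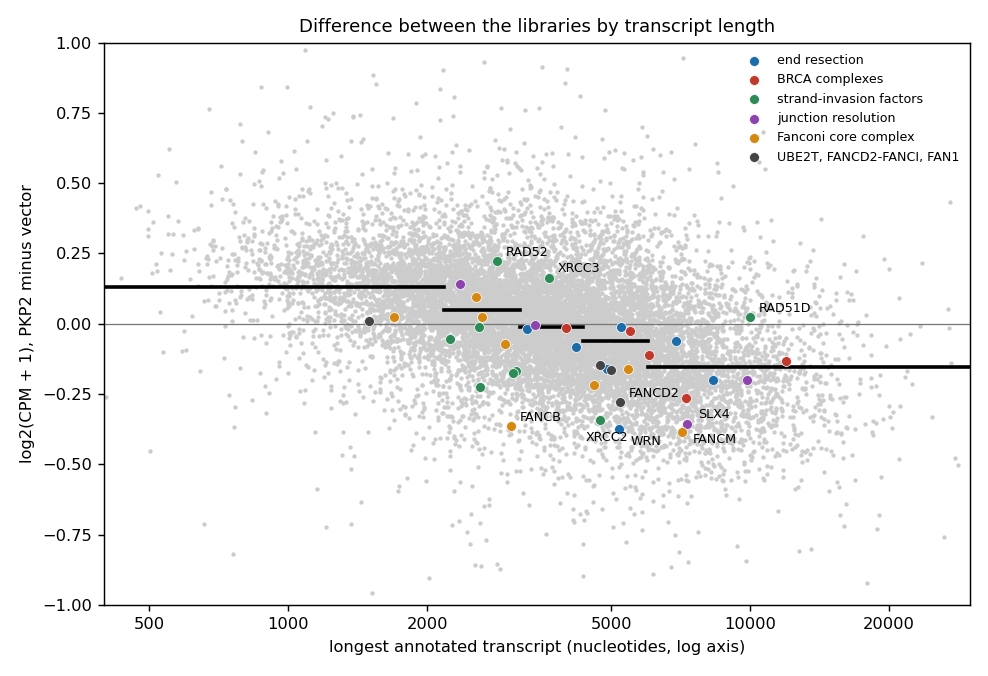
Difference in log2(CPM + 1), PKP2 minus vector, against the longest annotated transcript (log axis), with all expressed genes in grey, the repair genes in the colour of their role group and black bars for the median of each of 5 length groups; grey points beyond the axes are not shown. The repair genes follow the downward course of the bars, from 0.13 to -0.15, and most lie below the bar of their group.

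Partner genes measured in the same libraries can be compared with no library scaling. The pairs were chosen from known complexes after the values were seen, so the intervals are a description. The count of WRN was 0.838 times that of BLM in the vector library and 0.646 times with PKP2, a ratio of these ratios of 0.771 (0.655 to 0.908). XRCC2 to RAD51D went from 1.66 to 1.28, a ratio of 0.769 (0.623 to 0.949), here with the longer annotated transcript in RAD51D. Whether A549 cells use that transcript is not known. SLX4 to MUS81 went from 0.994 to 0.772, a ratio of 0.777 (0.645 to 0.935), here with the longer transcript in SLX4. With the trend removed, the differences of the first gene minus the second were -0.35 for WRN and BLM, -0.42 for XRCC2 and RAD51D, and -0.23 for SLX4 and MUS81. The lowest of the 15 pairs was FANCB to FANCL, from 0.403 to 0.299, a ratio of 0.740 (0.561 to 0.975), with a fractional count in FANCL. FANCA to FANCG, also with a fractional count, had a ratio of 0.879 (0.774 to 0.999). These 5 were the pairs whose interval did not include 1, and no share was computed over pairs of other expressed genes. Among single expressed genes the counting interval lay below 1 in 19.8% and above 1 in 16.3%. In the pairs led by WRN, XRCC2, SLX4 and FANCB the first gene was already called lower, so their intervals are not a separate result. In the MRN complex the ratio was 1.102 (0.963 to 1.26) for MRE11 to RAD50 and 1.03 (0.924 to 1.14) for NBN to RAD50, intervals that included 1. BRCA1 to BARD1 had a ratio of 0.848 (0.710 to 1.01), and FANCD2 to FANCI of 0.911 (0.825 to 1.01), intervals that just included 1.

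**Figure D4:**
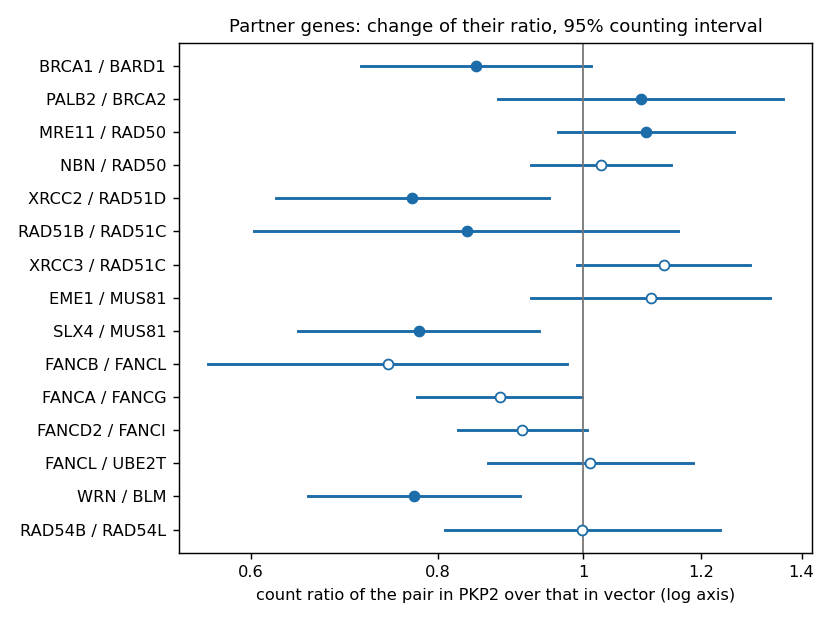
Change in the count ratio of 15 partner pairs between the libraries (log axis), with bars for the 95% counting interval and open points for pairs with a fractional count. All pairs were chosen after the values were seen. The intervals of 5 pairs lie below 1, with FANCB to FANCL lowest at 0.740. Those of the other 10, the MRN pairs among them, include 1.

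Levels between genes were compared per kilobase of the principal annotated transcript, an approximate scale because the transcript in use in A549 is not known. On it UBE2T was highest at 87.5 CPM per kilobase in the vector library and 88.2 with PKP2. FANCI followed at 44.97 and 40.6, and RAD51C at 23.7 and 23.5. The lowest were BRCA2, at 1.36 and 1.24, and RAD51D, at 1.82 and 1.85. The span between genes was thus far wider than any difference between the libraries.

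Other genes of the same pathways, 53 of a list of 54 with a value, had members past the rule on both sides. All 53 passed the expression filter; 27 lay below 0 and 26 above, with a median of 0.00. Of them 7 (13.2%, against a background of 11.0%) were at least 1.2-fold lower and 8 (15.1%, against 8.70%) at least 1.2-fold higher. The 8 include SLX1A and SLX1B, near-identical copies with the same fractional count that are 1 measurement. They also include MEIOB, DMC1, SWSAP1 and POLN, named after their values were seen, which averaged under 5 CPM and had intervals that included 1. The 7 lower genes include HELB, which also averaged under 5 CPM, at 3.59 and 2.32 CPM. After the length and GC trend was taken out 1 gene (1.89%, against 6.56%) was lower by the rule and 4 (7.55%, against 6.57%) were higher. These 4 were SEM1 and the low-level POLN, DMC1 and MEIOB. The median of the 53 genes was -0.02. Leaving aside genes that averaged under 5 CPM, the lowest were ERCC4, the crosslink-unhooking nuclease (28.1 and 21.4 CPM), REV3L, the catalytic subunit of translesion polymerase zeta (22.4 and 17.2 CPM), and MCM8, a helicase in recombination (108 and 84.8 CPM). Without the trend these lay at -0.22, -0.15 and -0.19, short of 1.2-fold. The highest were SWI5, a recombination mediator (15.5 and 20.6 CPM), and SEM1, the small acidic partner of BRCA2 (40.3 and 52.2 CPM). SEM1 had a ratio of 1.30 (1.17 to 1.43) and lay at 0.42 with the trend removed, while SWI5 lay at 0.17. The nuclease genes SLX1A and SLX1B were at 25.1 and 30.7 CPM, and at 0.07 with the trend removed. The 3 lowest genes have transcripts of 6758 to 10964 nucleotides, and SWI5 one of 1048 nucleotides. Genes of DNA replication, 27 in number, had a median of -0.01, and 22 mitosis genes a median of -0.07. With the trend removed these medians were -0.05 and -0.04, near that of the 37 repair genes at -0.04.

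Promoter sequences from RefSeq (GRCh38.p14) were found for 32 of the 37 genes, and the 250 bases before the listed start were searched on both strands for short motifs. Whether A549 cells use the listed start is not known. Some stretches, such as that of RAD51B (chr14:67823291-67823540), lie inside the annotated gene (chr14:67819779-68730218). The letters CCGGAAGT, an ETS-family motif, were in 6 of 32 (18.8%), against 3.64% of 27305 promoters of the same length and 7.24% of the 10441 promoters of expressed genes. The CCAAT letters of the CCAAT box were in 12 (37.5%, against 35.0% of expressed genes), the CHR letters TTTGAA in 3 (9.38%, against 8.29%), and the E2F letters TTTGGCGC, TTTCCCGC or TTTCGCGC in 1 (3.13%, against 3.91%). The palindromic NRF1 motif was in 0 of 32, against 2.02% of expressed genes. The stretches around the ETS letters, which are in capitals, are shown because this is the motif whose share stood farthest from that of expressed genes; each is on the strand of its gene, and in RAD50 the second of 2 matches is shown.
BRCA2, chr13:32315383-32315462, plus strand: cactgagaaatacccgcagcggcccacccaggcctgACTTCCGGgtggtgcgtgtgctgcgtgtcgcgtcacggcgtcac
EME1, chr17:50373149-50373228, plus strand: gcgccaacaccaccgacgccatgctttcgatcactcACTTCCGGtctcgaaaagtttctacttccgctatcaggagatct
FANCD2, chr3:10026331-10026410, plus strand: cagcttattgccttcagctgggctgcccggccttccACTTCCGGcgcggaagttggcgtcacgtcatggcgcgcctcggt
MRE11, chr11:94493959-94494038, minus strand: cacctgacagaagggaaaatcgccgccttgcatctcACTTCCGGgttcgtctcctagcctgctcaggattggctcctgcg
PALB2, chr16:23641428-23641507, minus strand: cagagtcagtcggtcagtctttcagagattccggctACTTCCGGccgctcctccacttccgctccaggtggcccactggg
RAD50, chr5:132556850-132556929, plus strand: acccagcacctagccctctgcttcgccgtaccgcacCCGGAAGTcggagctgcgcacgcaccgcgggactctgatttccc
In 5 of the 6 the letters read in reverse, as ACTTCCGG. The ratios of these genes were 0.906 for BRCA2, 1.11 for EME1, 0.822 for FANCD2, 0.957 for MRE11, 0.990 for PALB2 and 0.868 for RAD50. Of these 6 ratios 5 were below 1, where 29 of all 37 genes lay below 0. The counting intervals of BRCA2, MRE11, PALB2 and EME1 included 1, and EME1 had a fractional count. A match is a description of the sequence and not a bound site.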

How the data were processed

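Per the labels, Trizol RNA from A549 cells was made into TruSeq RNA libraries. The authors deposited 1 file per library of estimated counts by Entrez gene, not scaled to a common depth. Per the submitters' processing notes, the tools included HISAT2 2.0.4, Bowtie2 and RSEM 1.2.12, with the build GRCh38.p12. For the annotation, filters and strand setting, the sources used here give nothing. Genes with a fractional count (10 of the 37) or with exons shared with another gene are therefore uncertain.

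CPM was computed from the deposited estimated counts, which were rounded to whole numbers only for intervals. The difference was log2(CPM + 1), PKP2 minus vector, over genes that reached 1 CPM in either library. A pseudocount of 1 CPM understates differences of low genes. No p-value was computed. Symbols came from a RefSeq table by Entrez ID, and transcript length and GC content from GENCODE release 29 for 98.8% of expressed genes. The trend was an additive lowess on log2 length and GC content (span 0.3, statsmodels 0.14.6), centred on 0 so that the overall level stayed. Its calculation and the intervals were tested on simulated whole counts with counting error only and a planted trend on length. That simulation held no planted GC trend, fractional counts or duplicates, so it does not cover them. PCR duplicates are not independent molecules, so intervals cover counting error only.

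The members and lists were chosen with earlier results of these data known. The text names PKP2, all 37 members and, of the other pathway genes, the 3 highest and 3 lowest at a mean of 5 CPM or more, where SLX1A and SLX1B tie. Marker genes are named as examples. A further gene of the pathway list is not reported here. Where a gene had several promoter records, the first listed was used. The alternatives were pseudocounts of 0.1 and 5 CPM, other filters and scalings, thresholds of 1.1-fold and 1.5-fold, and 4 ways to remove the length trend.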

Additional observations from a re-analysis of the deposited data

How the results depend on the processing

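No paired analysis was possible because each group has 1 library, and no replicate could be left out. The median of the 37 genes stayed below 0 under all 11 alternatives run, from -0.114 to -0.0279. It was -0.0449 without the trend on length and GC, -0.0838 with the median of 20 length bins subtracted, -0.0823 without fractional counts, and -0.0279 with the trend taken from the principal transcript, an alternative chosen after seeing the data. Of the 6 genes at least 1.2-fold lower, 2 (FANCB and SLX4) kept to the rule once that trend was taken out, and 3 (these and XRCC2) with the principal transcript. With length alone removed 5 genes passed (FANCD2 and SLX4 did not, and RAD51B did), and with length bins 4 (FANCD2, FANCM and SLX4 did not, and RAD51B did). A pseudocount of 5 CPM left 4, without FANCB and FANCD2, and one of 0.1 CPM gave 8, with BRCA1 and RAD51B added. At 1.1-fold 17 genes were lower and 3 higher, at 1.5-fold 0 and 0, and by the counting interval 15 and 1. The median of the other pathway genes, -0.00271, was -0.0236 over genes that averaged 5 CPM, -0.0215 without the trend on length and GC, -0.0393 without the length trend alone and -0.0407 with length bins. Scaling to the median or trimmed mean of log ratios shifted all log2 ratios by the same small amount, -0.00148 or -0.00304 before centring. No called difference changed sign. Depth limits the genes of lowest count most. Intervals reached more than 1.2-fold to either side of the ratio for RAD51B, FANCE, FANCB, FANCF and RAD52. Their counts in the PKP2 library were 77, 111, 126, 177 and 246.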
